A study of Mus musculus with 75 samples.

Results

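Mitochondrial-nuclear exchange mice carry the nuclear genome of one inbred strain and the mitochondrial genome of another. The effect of the nuclear genome on gene expression was measured in epididymal white adipose tissue, a visceral fat depot, of mice fed chow. The members are 15 of the 75 libraries of the series. They comprise 8 libraries with a C57BL6/J nucleus (C57n), of which 4 are C57n:C57mt, the C57BL6/J wild type, and 4 are C57n:C3Hmt, the exchange line with C3H/HeN mitochondria. Against them stand 7 libraries with a C3H/HeN nucleus (C3Hn), of which 4 are C3Hn:C57mt, the reciprocal exchange line, and 3 are C3Hn:C3Hmt, the C3H/HeN wild type. All of these mice were weaned onto chow and stayed on it, from 6 to 12 or 13 weeks of age, and each library came from a different animal number. The contrast was C57n minus C3Hn, averaged over both mitochondrial genomes, and was described across all genes.

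White adipose tissue holds adipocytes, which store triglyceride and secrete hormones such as leptin and adiponectin, together with macrophages, lymphocytes, fibroblasts and vessels. C57BL/6 and C3H mice are inbred strains that differ at many nuclear loci, including the major histocompatibility complex, the natural killer cell receptor clusters and several interferon-induced genes that are silent in one of the strains. Because an exchange line combines the nucleus of one strain with the mitochondria of the other, a difference between nuclei can be read on either mitochondrial background.

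The 15 libraries held 19.3 M to 28.8 M expected counts each. The share of mismatched bases reported by the sequencing provider was 0.00285 to 0.00331 in C57n libraries and 0.00451 to 0.00485 in C3Hn libraries, with no overlap. All 7 C3Hn libraries and 1 C57n library, C57n:C57mt replicate 1, were sequenced in the lane labelled L5, and the other 7 C57n libraries in lane L6, so lane and nucleus can hardly be told apart on chow. In 5 libraries the summed level of a list of epididymis markers was far above the rest: 22036 to 86715 CPM (read counts scaled to the size of the library) in 3 C57n libraries (C57n:C3Hmt replicates 1 and 4 and C57n:C57mt replicate 3) and 2993 to 5845 CPM in 2 C3Hn libraries (C3Hn:C57mt replicates 2 and 4). The same sum was 116 to 234 CPM in the other 5 C57n libraries and 91.1 to 236 CPM in the other 5 C3Hn libraries. The adipocyte identity list summed to 16296 to 19804 CPM in those 3 C57n libraries and 11869 to 44668 CPM in those 2 C3Hn libraries, against 64234 to 76510 CPM in the other C57n and 49430 to 101813 CPM in the other C3Hn libraries. The counts of genes called on chow, over all genes and for the lists described, are therefore also given without these 5 libraries. Below, a library with epididymal RNA is one with a sum over 500 CPM. The other libraries also held some counts of these markers.

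Of 17575 genes tested, 970 (5.52%) differed between the nuclear genomes at an adjusted p under 0.05. Of these, 407 (2.32%) were higher and 563 (3.2%) lower in C57n. The median size of a called difference was 3.04-fold for higher genes and 2.56-fold for lower genes, and 663 called genes changed by at least 1 on the log2 scale. The 2 groups did not overlap in CPM for 390 of the 970 called genes, against 423 of all 17575 genes tested (2.41%). Without the 5 libraries with epididymal RNA, 2641 of 16270 genes passed (16.2%), 1214 higher (7.46%) and 1427 lower (8.77%), and 864 of the 970 were among them. These shares of all genes tested are the background for the counts in each gene list below. With a single library left out the count ran from 500 to 2064, and 426 genes passed in all 15 such fits. It was 500 without C3Hn:C3Hmt replicate 2, 533 without C3Hn:C3Hmt replicate 3 and 608 without C3Hn:C57mt replicate 1, and it was 2064 without C3Hn:C57mt replicate 2. With the lane as a covariate 26 genes passed. Within lane L5, the single C57n library lay on the called side of the C3Hn mean for all 970 called genes and outside the C3Hn range for 731 (75.4%), against 71.9% and 18.5% of all genes tested, although that library was 1 of the 8 behind the calls. The part of the lane in these results was not tested.

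Among the genes with a large difference were several that are known to differ between mouse strains, and some were nearly silent in one nuclear background. Among called genes that averaged at least 1 CPM in the higher group, 20 had at most 3 counts in every C3Hn library. Another 15 had at most 3 counts in every C57n library. Called genes below that level are not in these counts. Of a list of 27 tested genes with known C57BL/6 alleles, 4 were higher and 7 lower in C57n, and the list had been drawn up for having strain differences. In the 10 libraries without epididymal RNA 7 were higher and 9 lower. Pttg1, which encodes securin, the inhibitor of the protease that separates sister chromatids, was measured at 27.8, 32.8 and 37.1 CPM (lowest, median and highest) in C57n libraries and 1.01, 2.16 and 4.93 CPM in C3Hn libraries. Its log2 fold change was 3.72 ± 0.29 (SE, n = 8 and 7, adjusted p = 1.15e-05). The 2 groups did not overlap. Trim12, a member of the tripartite motif family related to retroviral restriction factors, was at 14.8, 17.5 and 21.9 CPM in C57n and 0.150, 0.674 and 0.926 CPM in C3Hn libraries (log2 fold change 5.03 ± 0.37, adjusted p = 6.48e-06). These 2 genes and the chemokine genes Ccl21a and Ccl21c also passed in the fit with lane as a covariate. Ccl21a, which guides T cells and dendritic cells into lymphoid tissue, had 5280 counts in the C57n libraries and 0 in the C3Hn libraries, at least 1343-fold higher in C57n (floor of 3 counts over the group). Ccl21a and Ccl21c are near-identical copies, so the share of reads given to each is uncertain.

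In the other direction, H2-Ea, Ifi202b and Gbp1 were high in C3Hn libraries and low in C57n. H2-Ea encodes the alpha chain of the class II molecule I-E, which C57BL/6 mice lack. It had 2 counts in the 8 C57n libraries together, both in a single library, against 42.5, 122 and 196 CPM in C3Hn libraries. Over the pooled libraries of each nucleus, counts relative to depth were lower in C57n by a ratio of 13151 (95% counting interval 3640 to 108588, adjusted p = 1.19e-05). Ifi202b, an interferon-inducible DNA-binding protein gene, had 2 counts in C57n and 7.19, 22.6 and 28.7 CPM in C3Hn libraries, a ratio of pooled counts of 2158 (598 to 17822, adjusted p = 2.46e-05). For both genes every C3Hn library was far above every C57n library. Gbp1 (current symbol Gbp2b), a guanylate-binding protein that acts against intracellular pathogens, was at 0.0373, 0.924 and 4.72 CPM in C57n and 24.6, 39.7 and 71.4 CPM in C3Hn libraries (log2 fold change −5.33 ± 0.67, adjusted p = 0.000489). Glo1 encodes glyoxalase 1, which detoxifies methylglyoxal, and lies in a segment that is duplicated in some inbred strains. It was at 50.6, 84.9 and 104 CPM in C57n and 160, 179 and 235 CPM in C3Hn libraries (log2 fold change −1.25 ± 0.13, adjusted p = 9.36e-05). That difference is a graded one, with both groups well above background.

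**Figure D1:**
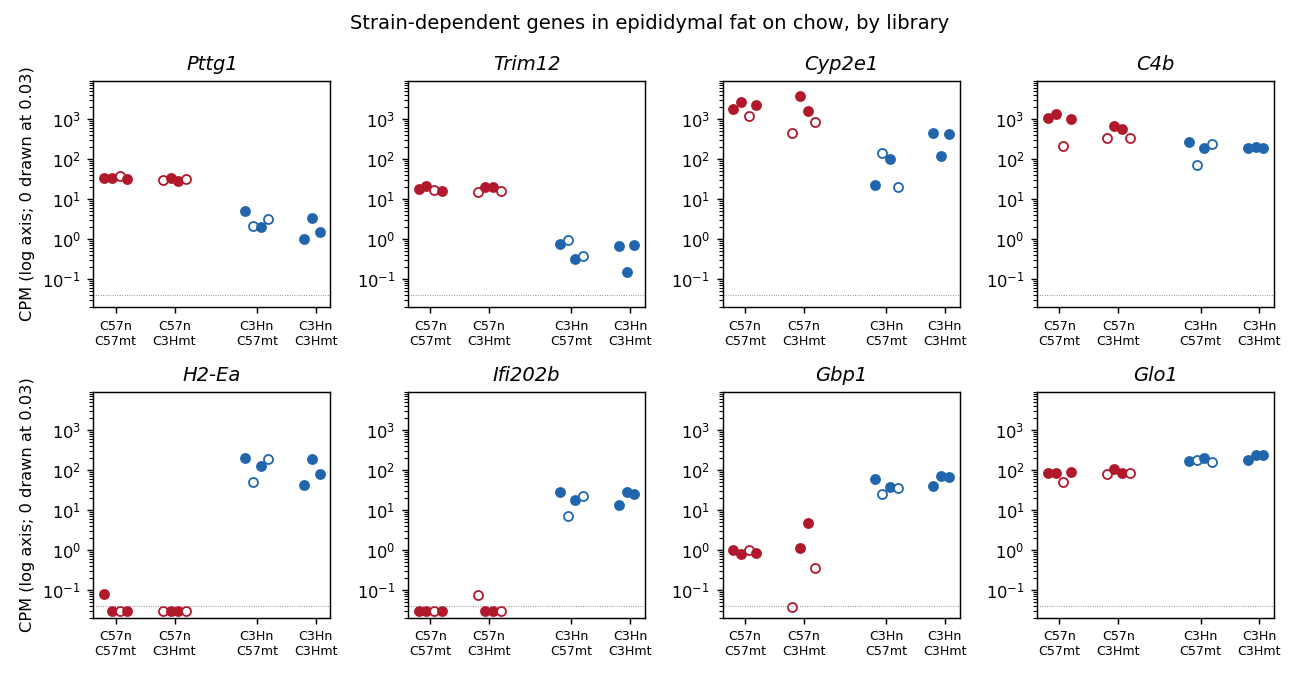
Level in CPM of 8 genes in each of the 15 libraries, C57n left of C3Hn, on a log axis with 0 drawn at 0.03 CPM. Open symbols mark the 5 libraries with epididymal RNA. Pttg1, Trim12 and Cyp2e1 lie higher in every C57n library, and H2-Ea, Ifi202b, Gbp1 and Glo1 higher in every C3Hn library, while C4b overlaps.

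On the mm9 genome build Pttg1 lies at chr11:43233752-43239753 on the minus strand, Trim12 at chr7:111448408-111463980, Gbp1 at chr3:142257811-142282143 on the plus strand and Ifi202b at chr1:175892700-175912975 on the minus strand. The 250 bases before the RefSeq transcription start, on build GRCm38.p6 and 5′ to 3′ on the gene's strand, are shown for 3 genes whose groups did not overlap: an interferon-inducible gene high in C3Hn (Gbp2b, chr3:142594597-142594846), a cell cycle gene high in C57n (Pttg1, chr11:43425982-43426231) and a metabolic gene high in C57n (Cyp2e1, chr7:140763569-140763818).
Gbp2b: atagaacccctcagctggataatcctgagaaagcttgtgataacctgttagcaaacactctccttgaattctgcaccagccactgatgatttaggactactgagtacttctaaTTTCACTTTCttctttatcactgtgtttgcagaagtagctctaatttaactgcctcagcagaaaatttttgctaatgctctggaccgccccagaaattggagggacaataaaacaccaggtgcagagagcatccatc
Pttg1: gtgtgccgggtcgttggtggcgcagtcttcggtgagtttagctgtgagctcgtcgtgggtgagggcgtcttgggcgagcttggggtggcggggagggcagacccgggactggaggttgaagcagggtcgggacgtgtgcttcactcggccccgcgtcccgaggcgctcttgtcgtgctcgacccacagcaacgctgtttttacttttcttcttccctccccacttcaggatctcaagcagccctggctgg
Cyp2e1: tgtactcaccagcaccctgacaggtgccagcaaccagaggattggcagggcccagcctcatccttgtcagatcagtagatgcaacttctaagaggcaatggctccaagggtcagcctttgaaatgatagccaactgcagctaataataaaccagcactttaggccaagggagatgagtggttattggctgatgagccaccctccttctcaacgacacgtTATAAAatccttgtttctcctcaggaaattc
Capitals mark a match to the core of the interferon-stimulated response element, TTTCNNTTTC, which begins 137 bases before the start of Gbp2b, and to the TATA box letters TATAAA, which begin 31 bases before the start of Cyp2e1. Both motifs were searched on both strands. The first was found in 978 of 32851 RefSeq promoters of this length (2.98%) and the second in 4063 (12.4%). Neither set of letters was found in the Pttg1 window. The sequences are those of the reference genome, which is of the C57BL/6J strain, and the C3H/HeN sequence was not analysed here.

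Among 22 tested genes of MHC class I and antigen processing, 0 were higher and 6 lower in C57n, with a median log2 fold change of −0.96 against 0.08 over all genes tested. With the 5 libraries left out 0 were higher and 9 lower. The share of all genes tested that was lower was 3.2%, or 8.77% without the 5. The 6 called in all 15 libraries were H2-T22, H2-T10, H2-T23, H2-T24, H2-Q2 and H2-Q1. H2-Q1 was at 56.1, 107 and 137 CPM in C57n and 166, 303 and 543 CPM in C3Hn libraries (log2 fold change −1.70 ± 0.28, adjusted p = 0.00356). H2-T23, which encodes the nonclassical molecule Qa-1, was at 66.8, 90.8 and 123 CPM in C57n and 143, 192 and 332 CPM in C3Hn libraries (−1.31 ± 0.21, adjusted p = 0.00245). Neither gene's groups overlapped. These class I genes are close relatives of each other and differ in sequence between the strains' haplotypes, so how reads were shared among them is uncertain. Of 11 class II genes only H2-Ea passed, and without the 5 libraries 2 were lower. H2-Aa, H2-Ab1 and H2-Eb1, named here after their values were seen, had log2 fold changes of −0.22, 0.13 and 0.36 (adjusted p = 0.755, 0.859 and 0.563).

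The interferon-stimulated genes that passed in the 15 chow libraries were few and went in both directions. Of 40 tested, 1 was higher in C57n and 2 were lower, with a median of 0.16. Without the 5 libraries with epididymal RNA 10 were higher and 2 lower, against 7.46% higher and 8.77% lower over all genes tested. The higher gene in the 15 libraries was Mnda, a member of the same DNA-sensor family as Ifi202b. It was at 7.23, 17.2 and 21.7 CPM in C57n and 2.16, 5.35 and 7.44 CPM in C3Hn libraries (log2 fold change 1.60 ± 0.34, adjusted p = 0.016). The Mnda call was lost in 2 of 15 fits with 1 library left out, those without C3Hn:C3Hmt replicate 2 (0.0536) or C3Hn:C3Hmt replicate 3 (0.0535), with the adjusted p in brackets.

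Natural killer cell receptor genes differed in both directions, 3 higher and 2 lower in C57n of 15 tested, or 4 higher and 3 lower without the 5 libraries with epididymal RNA. Among all genes tested 5.52% passed, or 16.2% without the 5. Klra8 encodes Ly49H, the activating receptor that lets C57BL/6 natural killer cells recognise mouse cytomegalovirus. It had 95 counts in C57n libraries and 0 in C3Hn libraries, at least 24.2-fold higher (adjusted p = 0.0108). Klrb1b, an inhibitory receptor of the NK1.1 family, was the reverse, with 0 counts in C57n and 113 in C3Hn libraries, at least 49.4-fold lower (adjusted p = 0.00267). Klrb1c, which encodes the NK1.1 antigen itself, was at 1.06, 2.07 and 430 CPM in C57n and 0, 0 and 0.863 CPM in C3Hn libraries (log2 fold change 8.83 ± 1.86, adjusted p = 0.0201). Its highest value was in a C57n:C3Hmt library with epididymal RNA, and without the 5 such libraries the log2 fold change was 5.26 (adjusted p = 0.015). The Klrb1c call was lost in 2 of 15 fits with 1 library left out, those without C3Hn:C3Hmt replicate 2 (0.0656) or C3Hn:C3Hmt replicate 3 (0.0592), with the adjusted p in brackets. Ncr1, the receptor NKp46 that marks natural killer cells, was lower in C57n, at 0.278, 0.522 and 1.60 CPM against 1.60, 2.55 and 4.19 CPM in C3Hn libraries (−2.01 ± 0.39, adjusted p = 0.0104). These receptor genes lie in clusters of close relatives, so counts of single members are uncertain.

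Complement genes also split, with 2 higher and 2 lower of 21 tested, or 5 higher and 4 lower of 20 without the 5 libraries with epididymal RNA. C6, a component of the membrane attack complex, was at 24.1, 61.7 and 94.99 CPM in C57n and 2.82, 10.7 and 14.4 CPM in C3Hn libraries (log2 fold change 2.55 ± 0.42, adjusted p = 0.00325). C4b, the complement component 4 gene at chr17:34865325-34880827 (mm9), was at 215, 634 and 1364 CPM in C57n and 70.6, 187 and 268 CPM in C3Hn libraries (1.82 ± 0.38, adjusted p = 0.0155). Its neighbour and close copy C4a, the sex-limited protein gene, went the other way, at 0.820, 2.75 and 7.34 CPM in C57n and 6.04, 13.2 and 22.7 CPM in C3Hn libraries (−2.39 ± 0.37, adjusted p = 0.00217). Reads shared between the 2 copies could be split differently in the 2 strains. The C4b call was lost in 2 of 15 fits with 1 library left out, those without C3Hn:C3Hmt replicate 3 (0.0534) or C3Hn:C3Hmt replicate 2 (0.0534), with the adjusted p in brackets.

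The macrophage genes that passed in the 15 libraries were lower in C57n. Of 30 tested, 0 were higher and 9 lower (Mmp12, Cd84, Trem2, Itgax, Gpnmb, Lgals3, Itgad, Mpeg1 and Cd68), with a median log2 fold change of −1.22, and without the 5 libraries with epididymal RNA 1 was higher and 12 were lower. Over all genes tested 3.2% were lower, or 8.77% without the 5. Mmp12, the macrophage elastase (chr9:7344381-7369499, plus strand, mm9), was at 6.89, 13.9 and 33.7 CPM in C57n and 25.5, 617 and 1226 CPM in C3Hn libraries. Its log2 fold change was −5.03 ± 0.70 (adjusted p = 0.00109), the same in sign on the C57 (−5.20 ± 0.99) and the C3H (−4.86 ± 0.997) mitochondrial background. The spread within C3Hn was wide, and the lowest C3Hn library overlapped the C57n range. Trem2, a lipid-sensing receptor of macrophages that surround adipocytes, was at 3.53, 5.17 and 9.05 CPM in C57n and 6.75, 137 and 210 CPM in C3Hn libraries (−4.04 ± 0.64, adjusted p = 0.0025). Itgax, which encodes the integrin CD11c, was at 3.48, 10.1 and 14.1 CPM in C57n and 7.50, 144 and 290 CPM in C3Hn libraries (−3.65 ± 0.64, adjusted p = 0.00529). Of the broader markers, named here after their values were seen, Cd68 also passed, with a log2 fold change of −2.48 ± 0.51 (adjusted p = 0.0131). Emr1 (F4/80) and Lyzs (lysozyme) did not pass, with log2 fold changes of −1.08 (adjusted p = 0.18) and −1.23 (adjusted p = 0.147). The whole macrophage list summed to 883, 1822 and 2254 CPM in C57n and 1042, 6340 and 7942 CPM in C3Hn libraries. Among libraries without epididymal RNA, C57n sums were 1757 to 2254 CPM. C3Hn:C3Hmt replicate 1 was below them at 1457 CPM, and the other such C3Hn libraries were at 2935 to 7942 CPM. In whole tissue, fewer cells of a type and less RNA per cell cannot be told apart.

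The interleukin 7 receptor gene Il7r, expressed by T cells and innate lymphocytes, was at 1.04, 3.28 and 6.51 CPM in C57n and 6.22, 27.2 and 44.7 CPM in C3Hn libraries (log2 fold change −2.85 ± 0.50, adjusted p = 0.00564). Over the lymphocyte list, 1 gene was higher and 2 were lower of 25 tested, or 4 higher and 3 lower of 24 without the 5 libraries with epididymal RNA. The list median was 0.82, or 0.89 without those 5, so Il7r went against the list as a whole. Of 30 tested extracellular matrix genes 4 were lower in C57n (Timp1, Postn, Col8a1 and Mmp2) and 0 higher, the list median being −0.65, with 0 higher and 12 lower without the 5 libraries with epididymal RNA. The matching shares of lower genes over all genes tested were 3.2% and 8.77%. Mmp2, a gelatinase that remodels collagen, was at 24.02, 57.4 and 69.8 CPM in C57n and 57.1, 127 and 191 CPM in C3Hn libraries (−1.35 ± 0.30, adjusted p = 0.0215). Postn, the matrix protein periostin, was at 62.2, 115 and 147 CPM in C57n and 90.5, 240 and 400 CPM in C3Hn libraries (−1.18 ± 0.28, adjusted p = 0.0259). None of the 4 matrix calls was kept in all 15 fits with 1 library left out. For Col8a1 the call was kept in 5 of 15 such fits, with an adjusted p of up to 0.118. The Mmp2 call was lost without C3Hn:C3Hmt replicate 2 (adjusted p = 0.0668). The Postn call was lost in 5 of 15 fits with 1 library left out, those without C3Hn:C3Hmt replicate 2 (0.0672), C3Hn:C3Hmt replicate 3 (0.0609), C3Hn:C57mt replicate 1 (0.0586), C3Hn:C57mt replicate 4 (0.0565) or C57n:C3Hmt replicate 4 (0.053), with the adjusted p in brackets. The summed matrix list was 4903, 14933 and 20986 CPM in C57n and 6754, 22908 and 33314 CPM in C3Hn libraries. Atf3, a stress-induced transcription factor, was at 10.7, 14.4 and 39.8 CPM in C57n and 31.0, 83.6 and 111 CPM in C3Hn libraries (−2.01 ± 0.35, adjusted p = 0.00522). Of 20 immediate early genes tested 3 were lower in C57n, or 4 lower and 1 higher without the 5 libraries. Over all genes tested 3.2% were lower, or 8.77% without the 5. Besides Atf3 the called genes were Fosl1 and Jund1. Fosl1 was kept in 4 of 15 fits with 1 library left out (adjusted p up to 0.155), and Jund1 in 10 of 15 (up to 0.0729).

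**Figure D2:**
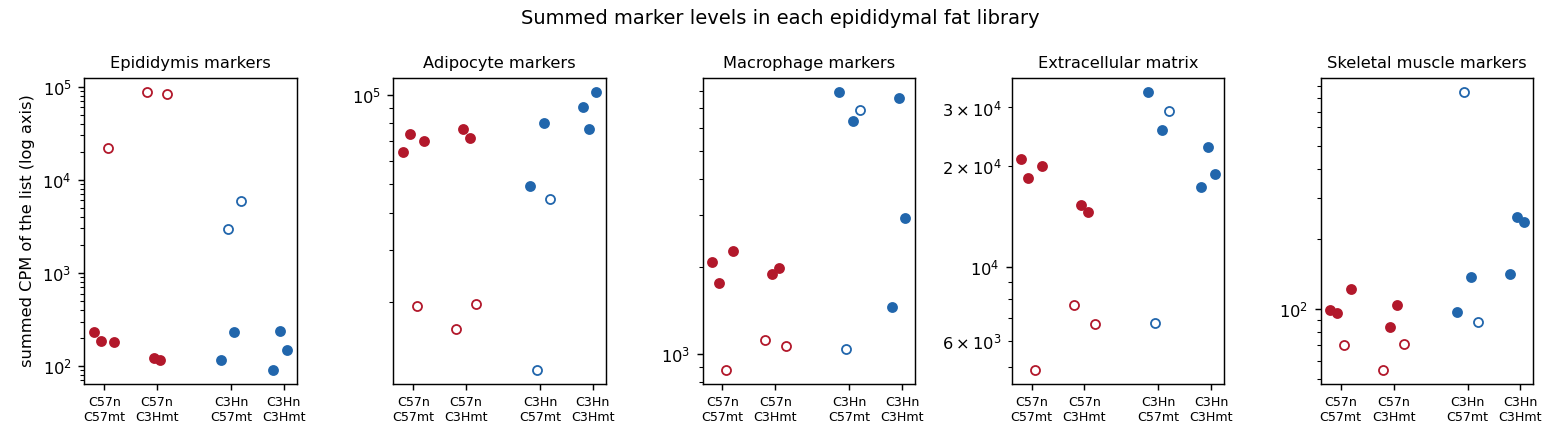
Summed CPM of 5 marker lists in each library, C57n left of C3Hn, on a log axis, with open symbols for the 5 libraries with epididymal RNA. The epididymis list is 2993 to 86715 CPM in those 5 libraries and 91.1 to 236 CPM in the others. The macrophage sums are 883 to 2254 CPM in C57n and 1042 to 7942 CPM in C3Hn libraries and overlap.

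In several lists for other cell types no gene passed in the 15 libraries. These were the lists of 18 endothelial, 8 mesothelial, 9 smooth muscle, 5 erythroid, 26 epididymis, 14 simple epithelium and 8 keratinocyte genes. The median log2 fold change was nevertheless 7.17 over the epididymis list and 3.53 over the simple epithelium list. The 3 libraries with the highest epididymis sums were all C57n. In the 10 libraries without epididymal RNA, 9 of 14 tested epididymis genes, 3 endothelial genes and 1 keratinocyte gene were higher in C57n, and 1 smooth muscle gene was lower. The median over the 14 epididymis genes was 3.42 there, so that label means a low sum and not an absence of these markers. Crisp1, a secreted protein of the epididymis, reached 7076 CPM in a C57n library and 1802 CPM in a C3Hn library (log2 fold change 4.72, adjusted p = 0.218). Ddx3y, a Y-linked gene, was detected in all 15 libraries at 15.8 to 45.9 CPM in C57n and 18.7 to 46.8 CPM in C3Hn (0.09, adjusted p = 0.841).

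Few genes of adipocyte function passed on chow. None of 18 adipocyte identity genes, 12 lipolysis genes and 13 triglyceride storage genes did. Adiponectin (Adipoq) was at 949, 3741 and 5528 CPM in C57n and 463, 4818 and 6190 CPM in C3Hn libraries (log2 fold change −0.23, adjusted p = 0.808). Leptin (Lep) was at 156, 1268 and 2890 CPM in C57n and 233, 1796 and 3532 CPM in C3Hn libraries (−0.51, adjusted p = 0.601). Without the 5 libraries with epididymal RNA, 1 of the 18 identity genes was higher in C57n, while 2 lipolysis genes were higher and 1 lower, and 3 triglyceride storage genes were higher and 2 lower. None of 20 insulin signalling, 19 clock and 24 cell cycle genes passed either in the 15 libraries, and without the 5 there were 2 insulin signalling genes and 1 clock gene higher and 1 cell cycle gene lower.

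Of 19 lipogenesis genes tested, 1 was higher in C57n and 0 lower, with a median of 0.58, and without the 5 libraries 9 were higher and 0 lower, against 16.2% of all genes called in that comparison. The gene that passed in all 15 libraries was Acly, ATP citrate lyase, which supplies cytosolic acetyl-CoA. It had a mean of 1054 ± 677 CPM (SD, n = 8) and a median of 792 CPM in C57n, against 453 ± 233 CPM (SD, n = 7) and a median of 386 CPM in C3Hn libraries, and the groups overlapped (log2 fold change 1.06 ± 0.27, adjusted p = 0.0358). In the 10 other libraries its log2 fold change was 1.39 (adjusted p = 0.00689). The Acly call was lost in 10 of 15 fits with 1 library left out, with an adjusted p of up to 0.117, and was kept in those without C3Hn:C3Hmt replicate 3, C3Hn:C57mt replicate 2, C57n:C3Hmt replicate 1, C57n:C3Hmt replicate 4 or C57n:C57mt replicate 2. The lipogenesis list summed to 13338 to 17381 CPM in the 3 C57n and 10438 to 21308 CPM in the 2 C3Hn libraries with epididymal RNA, and to 37792 to 122382 CPM in the other C57n and 19913 to 55753 CPM in the other C3Hn libraries.

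The genes of mitochondrial metabolism that passed in the 15 libraries were few, and were lower in C57n. Over all genes tested 5.52% passed, with 3.2% lower. Suclg1, the shared subunit of succinyl-CoA ligase in the tricarboxylic acid cycle, was at 102, 120 and 143 CPM in C57n and 155, 227 and 272 CPM in C3Hn libraries (log2 fold change −0.83 ± 0.11, adjusted p = 0.000895), with no overlap. It was the gene that passed of 18 in that cycle, and without the 5 libraries with epididymal RNA 2 were lower. Of 22 fatty acid oxidation genes none was higher and 2 were lower, and the list median was −0.53. With those 5 left out 1 was higher and 7 were lower. The 2 called in the 15 libraries were Acaa2, the mitochondrial thiolase (124, 164 and 178 CPM in C57n, 187, 211 and 234 CPM in C3Hn, −0.43 ± 0.10, adjusted p = 0.02), and Hadha, the alpha subunit of the trifunctional protein (161, 245 and 352 CPM in C57n, 289, 372 and 510 CPM in C3Hn, −0.67 ± 0.18, adjusted p = 0.0471). The Acaa2 call was lost in 3 of 15 fits with 1 library left out, those without C3Hn:C3Hmt replicate 3 (0.0601), C3Hn:C3Hmt replicate 2 (0.0564) or C57n:C57mt replicate 1 (0.0543), with the adjusted p in brackets. The Hadha call was lost in 12 of 15 fits with 1 library left out, with an adjusted p of up to 0.113, and was kept in those without C3Hn:C57mt replicate 2, C57n:C3Hmt replicate 2 or C57n:C57mt replicate 3. Of 66 nuclear genes of oxidative phosphorylation 1, Ndufa12, was lower (−0.53 ± 0.12, adjusted p = 0.0229), and of 3 genes encoded by mitochondrial DNA 0 passed. In the 10 libraries without epididymal RNA 3 of the nuclear genes were lower and 0 of the mitochondrial ones passed. The Ndufa12 call was lost in 5 of 15 fits with 1 library left out, those without C3Hn:C3Hmt replicate 3 (0.0745), C3Hn:C3Hmt replicate 2 (0.0636), C57n:C57mt replicate 1 (0.0554), C57n:C3Hmt replicate 4 (0.0512) or C57n:C3Hmt replicate 1 (0.0511), with the adjusted p in brackets. Nnt, the mitochondrial transhydrogenase that carries a deletion in C57BL/6J, was at 23.4, 25.4 and 35.5 CPM in C57n and 17.8, 28.6 and 45.6 CPM in C3Hn epididymal fat (−0.17 ± 0.17, adjusted p = 0.534). In muscle its log2 fold change was −1.70 (adjusted p = 1.48e-11). A count over the whole gene includes reads outside the deleted part.

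Of 23 cytochrome P450 genes tested 4 were higher in C57n and 0 lower, with a list median of 0.15, and without the 5 libraries with epididymal RNA 6 were higher and 1 lower of 22. The matching shares of higher genes over all genes tested were 2.32% and 7.46%. Cyp2e1 (chr7:147949638-147960874, plus strand, mm9), which oxidises ethanol, ketones and many small solvents and whose promoter is printed above, was at 446, 1719 and 3699 CPM in C57n and 20.5, 117 and 442 CPM in C3Hn libraries (log2 fold change 3.57 ± 0.62, adjusted p = 0.00492). The lowest C57n library was just above the highest C3Hn library. Cyp4f18, a leukotriene hydroxylase of myeloid cells, was at 1.70, 6.35 and 8.10 CPM in C57n and 0.309, 0.506 and 1.54 CPM in C3Hn libraries (2.88 ± 0.47, adjusted p = 0.00307). The other 2 were Cyp26b1, which degrades retinoic acid, and Cyp51, the lanosterol demethylase of cholesterol synthesis (1.19 ± 0.24, adjusted p = 0.0131). Cyp51 did not pass without the 6 libraries with epithelial RNA, which are the 5 named above and C57n:C57mt replicate 1 (adjusted p = 0.0526). Gsta3, a glutathione transferase, was at 69.4, 198 and 522 CPM in C57n and 16.1, 39.5 and 77.1 CPM in C3Hn libraries (2.23 ± 0.45, adjusted p = 0.013), and was the gene that passed of 21 in its family, where 4 of 20 were higher and 2 lower without the 5 libraries.

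Ucp1, the uncoupling protein of brown and beige adipocytes, did not pass in the 15 libraries. It was at 0.0371, 0.0889 and 231 CPM in C57n and 1.12, 26.1 and 216 CPM in C3Hn libraries (log2 fold change −3.62 ± 1.55, adjusted p = 0.165). The highest C57n value was in C57n:C57mt replicate 3, a library with epididymal RNA, and the other 7 C57n libraries were at 0.372 CPM or less. Without the 5 libraries with epididymal RNA the log2 fold change was −7.21 (adjusted p = 0.00389). On high-fat diet, C57n libraries were at 0 to 0.0621 CPM and C3Hn libraries at 2.14 to 22.6 CPM (−8.11, adjusted p = 2.23e-05). Of 16 brown and beige fat genes 0 passed in the 15 chow libraries, and 0 were higher and 5 lower without the 5.

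**Figure D3:**
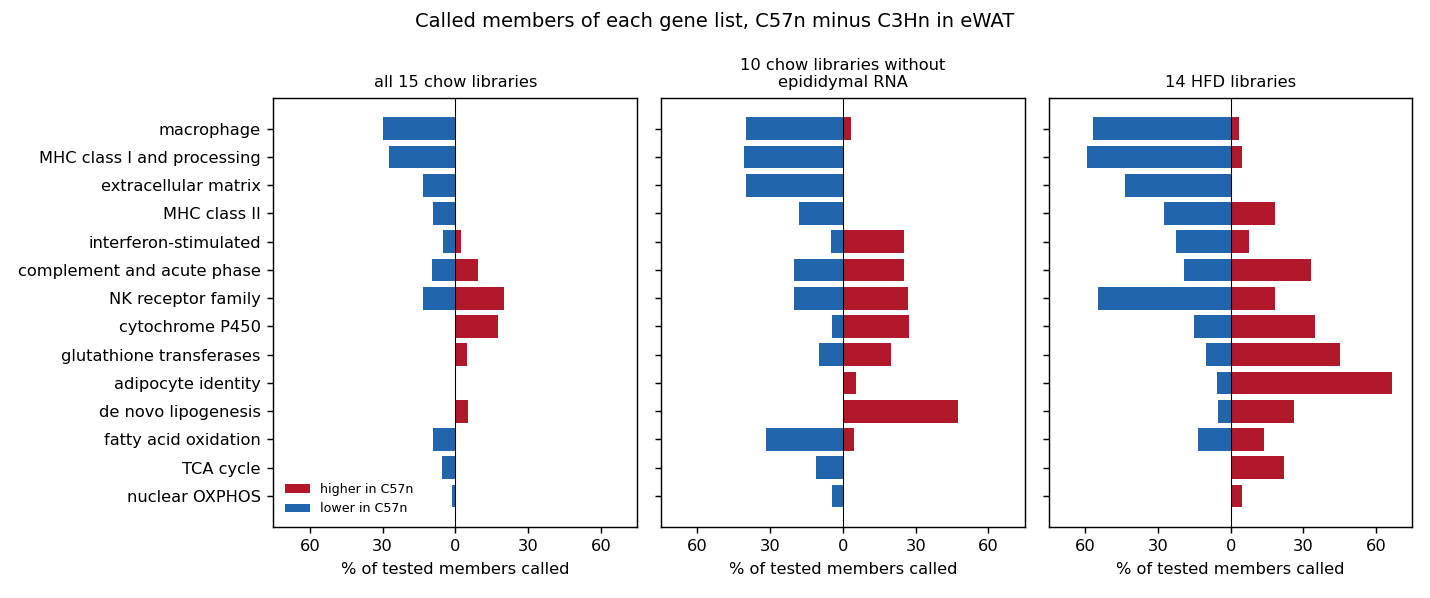
Percentage of the tested genes of 14 lists called higher (red, to the right) or lower (blue, to the left) in C57n, for all 15 chow libraries, the 10 chow libraries without epididymal RNA and the 14 high-fat libraries. Macrophage genes were called 0 higher and 9 lower in the 15 chow libraries and 1 higher and 17 lower on high-fat diet.

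On either mitochondrial background alone fewer genes passed. The contrast C57n:C57mt minus C3Hn:C57mt gave 327 genes (1.86%), 150 higher (0.853%) and 177 lower (1.01%), and C57n:C3Hmt minus C3Hn:C3Hmt gave 209 (1.19%), 96 higher (0.546%) and 113 lower (0.643%). The test of the difference between these 2 contrasts called 0 of 17575 genes by edgeR, where 1711 (9.74%) had an unadjusted p under 0.05 and the lowest adjusted p was 0.502. DESeq2 called 328. C6 had log2 fold changes of 2.90 and 2.20 on C57 and C3H mitochondria. Syngr1, a synaptic vesicle protein family member, had −2.53 and −0.93. None of these differences between backgrounds passed by edgeR.

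The same nuclear contrast in epididymal fat of other mice on high-fat diet, 7 C57n and 7 C3Hn libraries of both mitochondrial genomes all labelled lane L1, called 3894 of 15664 genes (24.9%), 1796 higher (11.5%) and 2098 lower (13.4%). Their titles carry 2 prefixes, with 3 C57n and 5 C3Hn libraries under one and 4 C57n, all 3 C57n:C3Hmt libraries among them, and 2 C3Hn libraries under the other. Of the 970 genes called on chow, 912 were tested on high-fat diet. Of these, 861 (94.4%) had the same sign and 640 (70.2%) were called in the same direction, while 2 were called in the opposite direction. Over all 15554 genes tested on both diets the same sign was found for 56.3%, and 18.1% were called on high-fat diet in the direction of their chow value and 1058 genes against it. The called genes with at most 3 counts in every library of 1 nucleus on chow, and at least 1 CPM on average in the other, were also compared. All 13 tested of those low in C57n and all 18 tested of those low in C3Hn were called in the same direction on high-fat diet. Pttg1 had a log2 fold change of 2.83 there, Trim12 4.71, C6 3.48, Cyp2e1 5.99, Gbp1 −6.00 and Mmp12 −3.79 (adjusted p = 0.00275). The test of the difference between diets called 0 of 17687 genes by edgeR, where 3627 (20.5%) had an unadjusted p under 0.05 and the lowest adjusted p was 0.101, and DESeq2 called 983.

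On high-fat diet, where 24.9% of all genes were called, the share called varied between these lists. Adipocyte identity genes were 12 higher and 1 lower of 18, Adipoq among the higher ones (1.05, adjusted p = 0.00126). Glutathione transferases were 9 higher and 2 lower of 20, and macrophage genes 1 higher and 17 lower of 30. Matrix genes were 0 higher and 13 lower of 30, and class I genes 1 higher and 13 lower of 22. Cell cycle genes were 0 higher and 15 lower of 24. Tricarboxylic acid cycle genes were 4 higher and 0 lower of 18, and fatty acid oxidation genes 3 higher and 3 lower of 22. Both were near the share of all genes. Nuclear oxidative phosphorylation genes were 3 higher and 0 lower of 66, below the share of all genes. Whether these lists differ between the diets was not tested.

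**Figure D4:**
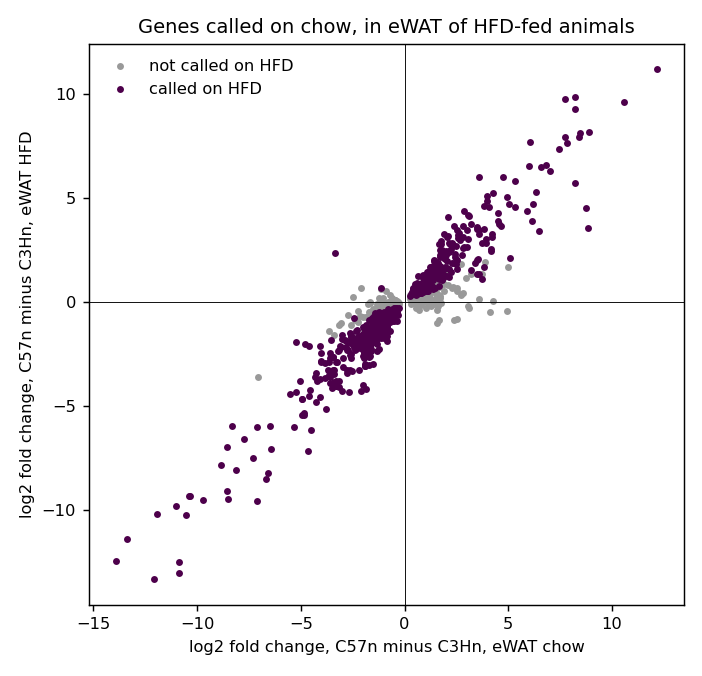
Log2 fold change (C57n minus C3Hn) in epididymal fat on chow, x axis, against that on high-fat diet, y axis, for the 912 genes called on chow and tested on both diets. Each point is a gene, and purple points were also called on high-fat diet. Of the 912, 861 have the same sign on both axes.

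The nuclear contrast was set beside that in inguinal fat, a subcutaneous depot (16 libraries), and muscle (16 libraries) of chow-fed mice, where 2979 of 16153 genes (18.4%) and 4619 of 13735 genes (33.6%) were called. In each of these tissues, by the titles, all C3Hn libraries shared a lane and all C57n libraries shared another. Lane and nucleus cannot be told apart there, and the part of the lane in the differences between tissues was not tested. In inguinal fat 1439 were higher (8.91%) and 1540 lower (9.53%), and in muscle 2353 (17.1%) and 2266 (16.5%). Of the 970 genes, 919 were tested in inguinal fat, where 609 (66.3%) were called in the same direction and 3 in the opposite one, against 16.1% and 386 genes over all genes tested in both. In muscle 378 were called in the same direction (53.2% of those tested there) and 50 in the opposite one, against 20% and 1801 genes over all genes tested in both. Some animals gave more than 1 of these tissues, 15 of 27. The difference between epididymal and inguinal fat in the nuclear contrast passed for 436 of 18358 genes (2.37%), 189 with a more positive contrast in epididymal fat (1.03%) and 247 with a more negative one (1.35%), or for 129 with the animal as a block. Between epididymal fat and muscle it passed for 1992 (10.9%), 932 more positive (5.08%) and 1060 more negative (5.77%), or for 1102 with the animal as a block. Without the 5 libraries with epididymal RNA the depot difference passed for 522 of 17596 genes (135 more positive, 387 more negative). Of the 436, 205 were among them. The difference from muscle then passed for 2349 (897 more positive, 1452 more negative), with 1364 of the 1992 among them.

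The gene Cacng6, which is better known from muscle, was low in C57n fat and not in C57n muscle. Cacng6, a calcium channel gamma subunit gene (chr7:3425423-3435658, mm9), had 0 counts in C57n epididymal fat and 1.54, 11.2 and 17.1 CPM in C3Hn, at least 739-fold lower in C57n, while in muscle it was higher in C57n, with means of 35.8 CPM against 13.4 CPM in C3Hn (1.41). Its difference from muscle passed (adjusted p = 8.69e-11, or 3.34e-09 with the block), and that from inguinal fat passed without the block (0.0289) and not with it (0.482).

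Skeletal muscle genes were also measured in epididymal fat. The muscle list summed to 55.0, 90.0 and 121.5 CPM in C57n and 88.2, 141.5 and 847.8 CPM in C3Hn epididymal fat, and 2 of its 16 tested genes were lower, Acta1 and Ryr1, or 1 of 13 lower and 1 higher without the 5 libraries with epididymal RNA. The sum of 847.8 CPM was in C3Hn:C57mt replicate 2, a library with epididymal RNA. Acta1, skeletal alpha-actin, was at 5.68, 26.6 and 51.0 CPM in C57n and 43.6, 91.6 and 403 CPM in C3Hn libraries (−2.49 ± 0.55, adjusted p = 0.0195), and on high-fat diet its log2 fold change was 0.23 (adjusted p = 0.658). Without the 5 libraries with epididymal RNA Acta1 had −1.66 (adjusted p = 0.00689) and Ryr1 −1.33 (adjusted p = 0.0555, no longer called). The Acta1 call was lost without C3Hn:C3Hmt replicate 2 (adjusted p = 0.054). In muscle Acta1 averaged 37862 CPM in C57n and 32282 CPM in C3Hn.

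Between the fat depots, Syngr1, Panx1 and Wif1 differed in the nuclear contrast. Panx1, which forms pannexin channels that release ATP, was at 2.57, 3.35 and 4.43 CPM in C57n and 5.31, 9.30 and 12.0 CPM in C3Hn epididymal fat (−1.40 ± 0.20, adjusted p = 0.00112). In inguinal fat its log2 fold change was 0.37 (adjusted p = 0.352). The difference between depots had an adjusted p of 0.00233, or 0.0059 with the animal as a block. Syngr1 had −1.73 ± 0.25 in epididymal fat (adjusted p = 0.00131) and 0.32 in inguinal fat (adjusted p = 0.449), with 0.000689 for the difference and 0.00236 with the block. Wif1, a secreted inhibitor of Wnt signalling, was at 0.0371, 0.0852 and 0.229 CPM in C57n and 1.40, 2.18 and 31.7 CPM in C3Hn epididymal fat (−5.25 ± 0.73, adjusted p = 0.00106) and had −1.35 in inguinal fat (adjusted p = 0.00135), with 0.000689 for the difference and 0.0328 with the block. The 31.7 CPM was in C3Hn:C57mt replicate 2, and without the 5 libraries with epididymal RNA the epididymal value was −4.34 (adjusted p = 0.00117). Acaa2, lower in C57n epididymal fat, was called higher in C57n inguinal fat (0.83, adjusted p = 0.044). The adjusted p was 0.00688 for the difference and 0.0137 with the block. Mmp12 and Itgax, lower in C57n epididymal fat, had log2 fold changes of −3.34 and −1.14 in inguinal fat and −0.18 (adjusted p = 0.517) and 0.11 (adjusted p = 0.799) in muscle. Npc1, the lysosomal cholesterol exporter, went the other way round, with −0.27 (adjusted p = 0.362) in epididymal fat and 2.505 in muscle, a difference with an adjusted p of 2.71e-14 (5.24e-13 with the block).

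**Figure D5:**
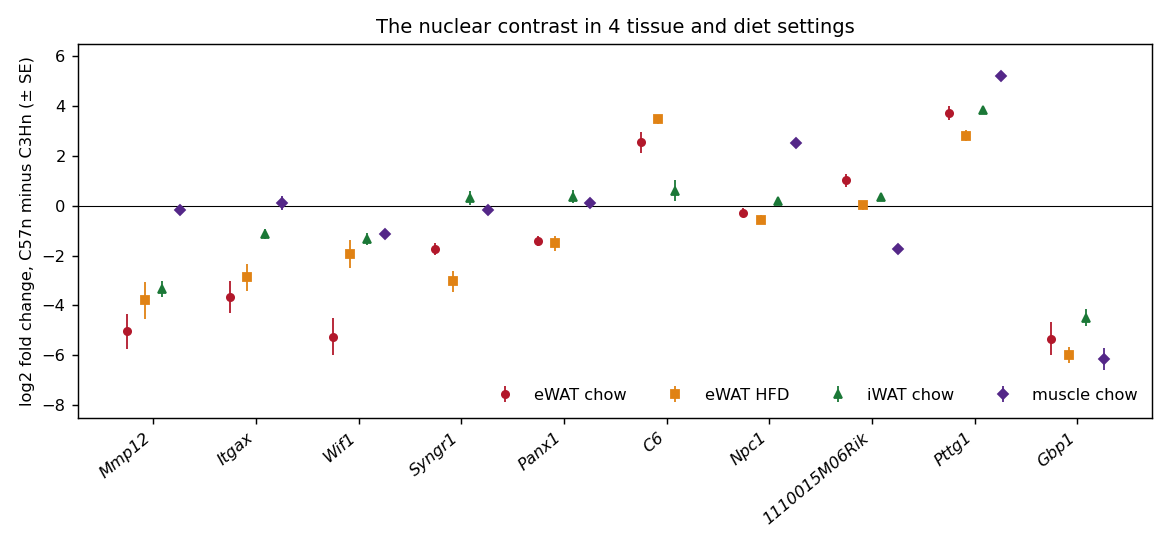
Log2 fold change (C57n minus C3Hn) with its standard error for 10 genes in epididymal fat on chow, epididymal fat on high-fat diet, inguinal fat on chow and muscle on chow. Mmp12 lies at −5.03 in epididymal fat on chow and −0.18 in muscle, and Npc1 lies at −0.27 in epididymal fat on chow, −0.56 on high-fat diet and 2.505 in muscle.

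Called genes were spread over the genome. Of 763 called genes with a position on mm9, 509 (66.7%) had another called gene within 1 Mb, against 8689 of 14759 tested genes (58.9%). The share called per autosome ran from 3.52% on chromosome 18 to 6.59% on chromosome 13.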

How the data were processed

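RNA from epididymal fat was extracted with an RNeasy kit and sequenced on an Illumina HiSeq instrument, per the labels. The deposited gene tables hold RSEM expected counts on mm9, per the submitters' processing notes, which also name DESeq2 1.10.1, and reads were mapped with the sequencing provider's own algorithm, per the series' design text. No source used here states the gene annotation, the strandedness or the handling of reads shared by near-identical genes. Deposited run summaries, per the file headers, give counts of genes detected, percentages of reads mapped, of ribosomal RNA and of duplicates, the fraction of mismatched bases and the mean insert length, an other measure.

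Expected counts were rounded to whole numbers, and 22423 genes of the chow table were considered. Genes were kept by filterByExpr (minimum count 10, minimum total 15) and tested with edgeR 4.0.16 (TMM scaling, quasi-likelihood F test, 4 group means), in R 4.3.3, with Benjamini-Hochberg adjustment over all genes tested and a call at an adjusted p under 0.05. CPM values use TMM-scaled library sizes, and are not divided by gene length. Standard errors are the log2 fold change divided by the square root of F. limma 3.58.1 and DESeq2 1.42.0 served as alternatives, and the tests were checked on simulated data. Depth was 19.3 M to 28.8 M expected counts per library, and intervals and floors of 3 counts cover counting error only.

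Replicates are different animal numbers in the labels, with no further word on litters or cages. High-fat libraries came from other animals, and the chow and high-fat tables were tested separately except for the test between diets. The named genes are the 12 most changed in each direction among called genes that average at least 1 CPM in the higher group and pass with each library left out, up to 3 called genes per list with the smallest p, a fixed set (Nnt, H2-Ea, Lep, Adipoq, Ucp1, Mmp12, Ddx3y, Crisp1, Krt18 and called strain alleles), the 10 smallest p, and up to 5 per interaction. Members of the contrast, gene lists and tests were chosen with earlier results of these data known. Normalized and isoform tables were not used here, and a gene that the rule names is not reported here. Gene positions came from the mm9 annotation for 66 of 86 named genes, and RefSeq promoter sequences were found for 46.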

Additional observations from a re-analysis of the deposited data

Results flagged for a closer look

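In 27 of 154 groups of 7 or 8 libraries, 1 library lay far from the others on the scale of log2(CPM + 0.1). Of these, 21 were in libraries with epididymal RNA, 11 of them in C3Hn:C57mt replicate 2 and 7 in C57n:C57mt replicate 3. Chance flags about 1 in 20 groups of continuous values. Where all other libraries are at 0 any count is flagged, so that rate does not apply. This was so for AK203176, AK220016, H2-Ea, Ifi202b and Lap1B, for Hist1h2bk in C57n, and for Klrb1c and Olfr1033. Among C57n libraries the values far from the rest were 3110007F17Rik at 3.87, AK039536 at 0, AK203176 at 0.174, AK220016 at 0.0772, Acaa2 at 124, Atf3 at 39.8, Atp6v0e2 at 36, Glo1 at 50.6, H2-Ea at 0.0772, Hist1h2bk at 0.0743, Ifi202b at 0.0745, LOC545611 at 22.9, Lap1B at 0.348, Nnt at 35.5 and Ucp1 at 231 CPM. Among C3Hn libraries they were Abhd1 at 24.7, C1rb at 233, C4b at 70.6, Cacng6 at 1.54, Hist1h2bk at 7.54, Itln1 at 2.87, Klrb1c at 0.863, Lep at 233, Npc1 at 19.1, Olfr1033 at 0.0441, Postn at 90.5 and Wif1 at 31.7 CPM. The part of epididymal RNA in these values was not tested.

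The nuclear contrast differed between epididymal and inguinal fat for 436 genes and between epididymal fat and muscle for 1992, by a test of the difference itself. Of these, 205 and 1364 also passed without the 5 libraries with epididymal RNA. Between the depots the adjusted p was 0.000689 for each of 1110018M03Rik (log2 fold change −0.62 in epididymal and 1.30 in inguinal fat), Syngr1 and Wif1, 0.00233 for Panx1, 0.00259 for Atp6v0e2 (0.19 and −1.47) and 0.0289 for Cacng6. With the animal as a block these were 0.000557 for 1110018M03Rik, 0.00236 for Syngr1, 0.0328 for Wif1, 0.0059 for Panx1, 0.000243 for Atp6v0e2 and 0.482 for Cacng6, so the Cacng6 call between the depots was lost. Against muscle it was 2.71e-14 for Npc1, 1.14e-11 for Sft2d2 (0.45 in epididymal fat and −1.28 in muscle), 8.69e-11 for each of 1110015M06Rik (1.02 and −1.73), AK014378 and Cacng6, 9.52e-06 for Wif1, 0.000625 for Panx1, 0.000758 for Syngr1 and 0.00477 for 1110018M03Rik. The 1110015M06Rik call in epididymal fat alone (adjusted p = 0.033) was lost in 9 of 15 fits with 1 library left out, with an adjusted p of up to 0.103.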

How the results depend on the processing

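The count of 970 genes was 994 with DESeq2-type size factors, 807 without a filter on low counts and 766 with limma-voom. It was 2671 (1404 higher, 1267 lower) with DESeq2, 2672 (1415 higher, 1257 lower) in a fit over all 29 epididymal libraries, 26 (23 higher, 3 lower) with lane as a covariate and 30 (13 higher, 17 lower) within lane L5, where the single C57n library is assumed to vary like the others. Corrected for GC content and length it was 786 (287 higher, 499 lower) of 14759 genes, but only 78.7% of the called genes had a value, so that check is void. Chosen after seeing the data, leaving out the 5 libraries with epididymal RNA gave 2641 and leaving out the 6 with epithelial RNA gave 1815. On C57 mitochondria the 327 genes became 1125 with DESeq2 and 1144 without the 5 libraries, and on C3H mitochondria the 209 became 1819 and 778. The interactions with the mitochondrial genome and with diet, 0 genes each by edgeR, were 328 and 983 with DESeq2. The depot interaction of 436 genes was 1100 with DESeq2, and 129 in limma-voom with the animal as a block, where the muscle interaction of 1992 was 1102. Without the 5 libraries with epididymal RNA these interactions were 522 and 2349 genes. The cause was not tested in any of these. With single libraries left out the counts ran from 500 to 2064, on C57 mitochondria from 136 to 686, on C3H mitochondria from 83 to 390, on high-fat diet from 2798 to 5678, and for the interaction with the mitochondrial genome from 0 to 0. Some of the 86 named genes, such as Nnt, Lep and Adipoq, had not passed in the 15 libraries and so could not be lost. Of those that had passed, 60 no longer did so with lane as a covariate and 8 with limma-voom. The losses were 6 without the 6 libraries with epithelial RNA and 3 without the filter. None of the 86 changed sign where it was called. The median log2 fold change of all genes was 0.08, 0.13 with DESeq2 and −0.05 with lane as a covariate. No paired analysis was possible because the labels give animal numbers and no replicate number shared between the genotypes. Genes with few counts in both groups were below what this depth can resolve.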

Other observations

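The gene table lists Tor1aip1 and Lap1B, an older name of the same gene, as separate records at chr1:157851729-157883610 (mm9). Tor1aip1 encodes lamina-associated polypeptide 1 of the inner nuclear membrane. The record Tor1aip1 was at 36.2, 50.2 and 89.8 CPM in C57n and 0, 0.263 and 3.25 CPM in C3Hn libraries (log2 fold change 7.02 ± 0.73, adjusted p = 9.36e-05), and the record Lap1B at 0, 0 and 0.348 CPM in C57n and 29.7, 41.9 and 47.8 CPM in C3Hn libraries (−10.88 ± 0.86, adjusted p = 6.88e-05). The 2 records thus point in opposite directions for a single locus, and Tor1aip1 was looked up after the values of Lap1B were seen. How the reads of the 2 strains were assigned to the 2 records was not tested.

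Other records among the smallest p-values went in both directions. AK162965 (log2 fold change 2.42 ± 0.16, adjusted p = 2.99e-06) and AK049668 (4.24 ± 0.29, adjusted p = 4.09e-06) were higher in C57n, and the records that follow were lower. AK161769, which has no gene name in the table, was at 0.432, 0.531 and 0.633 CPM in C57n and 23.7, 48.9 and 73.9 CPM in C3Hn libraries (−6.44 ± 0.25, adjusted p = 1.54e-08). AK210533 and AK205379 had near-identical values in every group, with a log2 fold change of −4.96 for both, and may share reads. Abhd1, an alpha/beta hydrolase fold gene, was at 2.97, 4.15 and 5.79 CPM in C57n and 24.7, 53.5 and 70.8 CPM in C3Hn libraries (−3.62 ± 0.23, adjusted p = 1.83e-06).

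The histone H2B genes Hist1h2bk and Hist1h2bl were nearly silent in C57n. Hist1h2bk had 2 counts in the C57n libraries and 7.54, 14.9 and 18.4 CPM in C3Hn libraries, a ratio of pooled counts of 1522 (95% counting interval 421 to 12569), and Hist1h2bl, looked up after its values were seen, had 0 counts and 0.176, 1.45 and 1.80 CPM, at least 77.3-fold lower. Both belong to a family of close copies whose reads may be shared.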
